A study of Mus musculus with 9 samples.

Results

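The genes described here are 39 antiviral genes that type I interferon induces, among 49671 genes counted in each of 9 RNA-seq libraries of mouse melanocyte lineage cells. The list was given as gene symbols, without the interferon-inducible GTPases and the MHC genes that are often placed beside them, and each symbol was matched to 1 Ensembl gene. All 39 passed the filter on low counts, which left 31961 genes tested. The study set cells of 3 ages side by side with an interest, by its title, in the immune checkpoint ligand PD-L1. Every library was made from dermal cells of female mice, sorted for KIT, a receptor on melanocyte lineage cells, and against CD45, a marker of immune cells. Melanoblasts, the melanocyte precursors of newborn skin, came from C57BL/6J pups at postnatal day 0.5 (3 libraries). Adult quiescent melanocyte stem cells (McSC) came from C57BL/6J females of 8 to 10 weeks whose hair follicles rested in telogen, between rounds of hair growth (4 libraries). Aged quiescent McSC came from C57BL/6 females of 24 months, also in telogen, that were received from an aged rodent colony at 21 months (2 libraries), so that colony and age cannot be told apart in this group. The labels call all animals wild type and name no treatment, and each library pooled cells of several animals, so that p-values measure the spread between pools.

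Type I interferons bind a receptor made of IFNAR1 and IFNAR2, whose kinases JAK1 and TYK2 pass the signal to ISGF3. This transcription factor complex, which includes STAT2 and IRF9, binds the interferon-stimulated response element (ISRE) in the promoters of its targets. The targets include sensors of foreign RNA, enzymes and binding proteins that block translation or degrade viral RNA, membrane proteins that hinder entry or release of virions, and feedback regulators such as USP18. Many are also transcribed at a basal level without infection.

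The ISRE is the sequence by which the members share their known control, so promoter windows of members with it are shown before the values. RefSeq windows of 300 bases (250 before the annotated start and 50 from it, build GRCm38.p6) were at hand for 28 of the 39 members. Those without one were Dhx58, Oas1b, Oas2, Mx1, Mx2, Usp18, Rtp4, Ifi27, Parp9, Parp14 and Zbp1. The letters GAAANNGAAA, searched on both strands with overlapping matches counted, stood in 13 of the 28 members (46.4%), against 1079 of 27025 genes with a window in the whole table (3.99%). A GAS-like motif, TTCNNNGAA, which is its own reverse complement, stood in 6 of the 28 (21.4%), against 9.55% of all genes. Below are the 250 bases before the start, 5′ to 3′ on the gene's strand, for some of the members with matches before the start. The ISRE letters are in capitals (on the opposite strand they read TTTCNNTTTC). Oas3, Oas1a and Ifitm2 also hold matches before the start and are not shown. Ifit1 (chr19:34640639-34640888, plus strand), Ifit3 (chr19:34583279-34583528, plus) and Ifit3b (chr19:34607707-34607956, plus) hold a pair each. Isg15 (chr4:156200819-156201068, minus) holds 3 overlapping matches, Bst2 (chr8:71537473-71537722, minus) a pair that overlaps, and Rsad2 (chr12:26456453-26456702, minus) 1 match.
Ifit1: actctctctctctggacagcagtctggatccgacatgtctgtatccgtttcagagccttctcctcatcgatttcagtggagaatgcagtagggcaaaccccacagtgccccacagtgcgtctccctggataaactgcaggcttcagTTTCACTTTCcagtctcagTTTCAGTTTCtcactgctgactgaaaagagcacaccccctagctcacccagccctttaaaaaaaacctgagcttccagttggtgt
Ifit3: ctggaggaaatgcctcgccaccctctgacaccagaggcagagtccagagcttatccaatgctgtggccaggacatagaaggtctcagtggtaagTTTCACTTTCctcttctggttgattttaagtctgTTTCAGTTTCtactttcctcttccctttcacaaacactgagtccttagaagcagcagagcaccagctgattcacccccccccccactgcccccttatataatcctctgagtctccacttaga
Ifit3b: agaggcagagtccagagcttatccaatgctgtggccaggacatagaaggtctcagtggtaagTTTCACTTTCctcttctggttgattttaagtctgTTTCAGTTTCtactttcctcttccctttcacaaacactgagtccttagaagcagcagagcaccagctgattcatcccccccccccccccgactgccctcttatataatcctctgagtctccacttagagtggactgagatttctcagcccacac
Isg15: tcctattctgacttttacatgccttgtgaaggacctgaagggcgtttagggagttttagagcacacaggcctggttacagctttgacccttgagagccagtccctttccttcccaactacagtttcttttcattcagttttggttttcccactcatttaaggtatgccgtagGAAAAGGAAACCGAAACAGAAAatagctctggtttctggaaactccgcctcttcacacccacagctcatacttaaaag
Bst2: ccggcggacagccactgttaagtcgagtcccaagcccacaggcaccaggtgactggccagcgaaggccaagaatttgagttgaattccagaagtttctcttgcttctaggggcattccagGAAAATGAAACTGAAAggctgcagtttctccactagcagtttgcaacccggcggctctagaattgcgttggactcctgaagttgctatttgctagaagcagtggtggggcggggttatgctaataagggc
Rsad2: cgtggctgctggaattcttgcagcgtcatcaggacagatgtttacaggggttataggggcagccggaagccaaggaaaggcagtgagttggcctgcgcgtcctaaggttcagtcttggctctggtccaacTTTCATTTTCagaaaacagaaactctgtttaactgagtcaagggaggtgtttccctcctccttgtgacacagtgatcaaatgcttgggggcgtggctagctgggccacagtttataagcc

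Aligned with gaps, 259 of 260 paired bases of the Ifit3 and Ifit3b windows were identical (99.6%), and the annotated start of Ifit3b lies further downstream in the shared sequence. Matches within the annotated transcript were found in 4 members, of which 3 are shown as 30 bases because their calls, given further on, differ: Eif2ak2 (chr17:78882535-78882564, minus), Ddx58 (chr4:40239805-40239834, minus) and Ifitm3 (chr7:141010715-141010744, minus). The other was Ifih1, with a match at bases 33 to 42.
Eif2ak2: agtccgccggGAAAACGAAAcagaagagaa
Ddx58: ccctgaggcagTTTCGATTTCctatggcca
Ifitm3: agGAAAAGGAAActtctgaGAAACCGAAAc

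**Figure D1:**
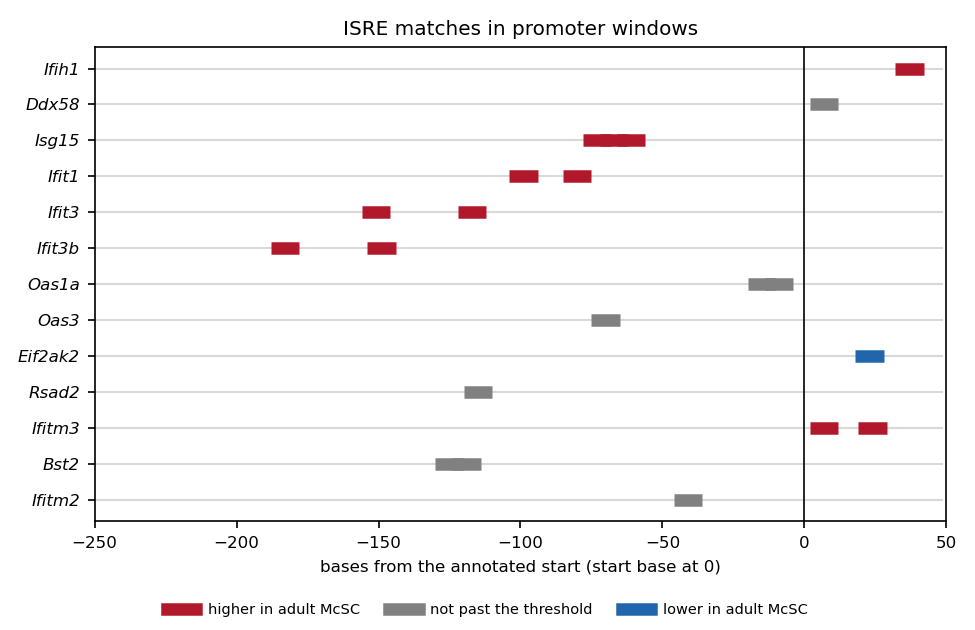
Positions of GAAANNGAAA, on either strand, in the windows of the 13 members that hold it. The x axis gives bases from the annotated start, each block is 1 match of 10 bases, and colours give the result of adult McSC against melanoblasts; matches of the Ifit genes lie between 188 and 76 bases before the start.

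The presence of these letters did not separate the members by what they did in adult McSC. Of the 13 members with a window that rose in adult McSC against melanoblasts, 6 held the ISRE letters (46.2%), and of the 15 that did not rise, 7 did (46.7%). Rsad2, Bst2 and Ddx58 hold it and gave no call in that comparison, and Eif2ak2 holds it and fell. A match is a string of letters and does not show that a factor was bound.

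Total counts ran from 12594770 to 33710117 per library, lowest in the aged pools. The 8 melanocyte lineage markers, among them Kit, Dct and Sox10, summed to 12641 to 23292 CPM (counts per megacount of the library, TMM scaled) in melanoblasts, 4047 to 10042 CPM in adult McSC and 6991 to 8236 CPM in aged McSC, so the labelled lineage was present in every library. Melanoblast replicate 3 lay apart from the other melanoblast libraries on the second principal component (-127.96, against 2.84 and 40.39). A library's scaling factor was 0.56 to 0.84 in melanoblasts and 1.085 to 1.515 in McSC, and with factors taken from abundant genes the median log2 fold change of all genes moved to 1.16, against 0.39 with TMM, for adult McSC over melanoblasts. It moved to 1.80, against 0.70, for aged McSC over melanoblasts, and to 0.42, against 0.08, for aged over adult McSC. Fold changes below are best read relative to these medians.

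Adult McSC carried more of the RNA of many interferon-stimulated genes than newborn melanoblasts, with the IFIT family at the head. Of the 39 members, 18 rose and 1 fell in edgeR's quasi-likelihood test at an adjusted p under 0.05 (Benjamini-Hochberg over all genes). Over all genes tested, 15.1% rose and 18.3% fell, 33.4% in all. The median log2 fold change was 0.87 over the members and 0.39 over all genes tested, and single members ranged from -1.48 to 3.49. In 20 members every adult library lay above every melanoblast library, as it did for 19.5% of all genes, and in 2 members (Eif2ak2 and Cmpk2) every adult library lay below, as it did for 19.8%. The cells were measured in bulk, so fewer cells of a type and less RNA per cell cannot be told apart in any of these values. With factors from abundant genes 26 members rose, and with library totals alone 27, with members' medians of 1.62 and 1.65. The median of all genes also moved up with factors from abundant genes, as given above. The share of all genes that rose under these scalings is not given here, so these counts do not show a stronger rise of the members. Without melanoblast replicate 3, 21 members rose and 3 fell, and without adult replicate 3 the number that fell was 2.

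**Figure D2:**
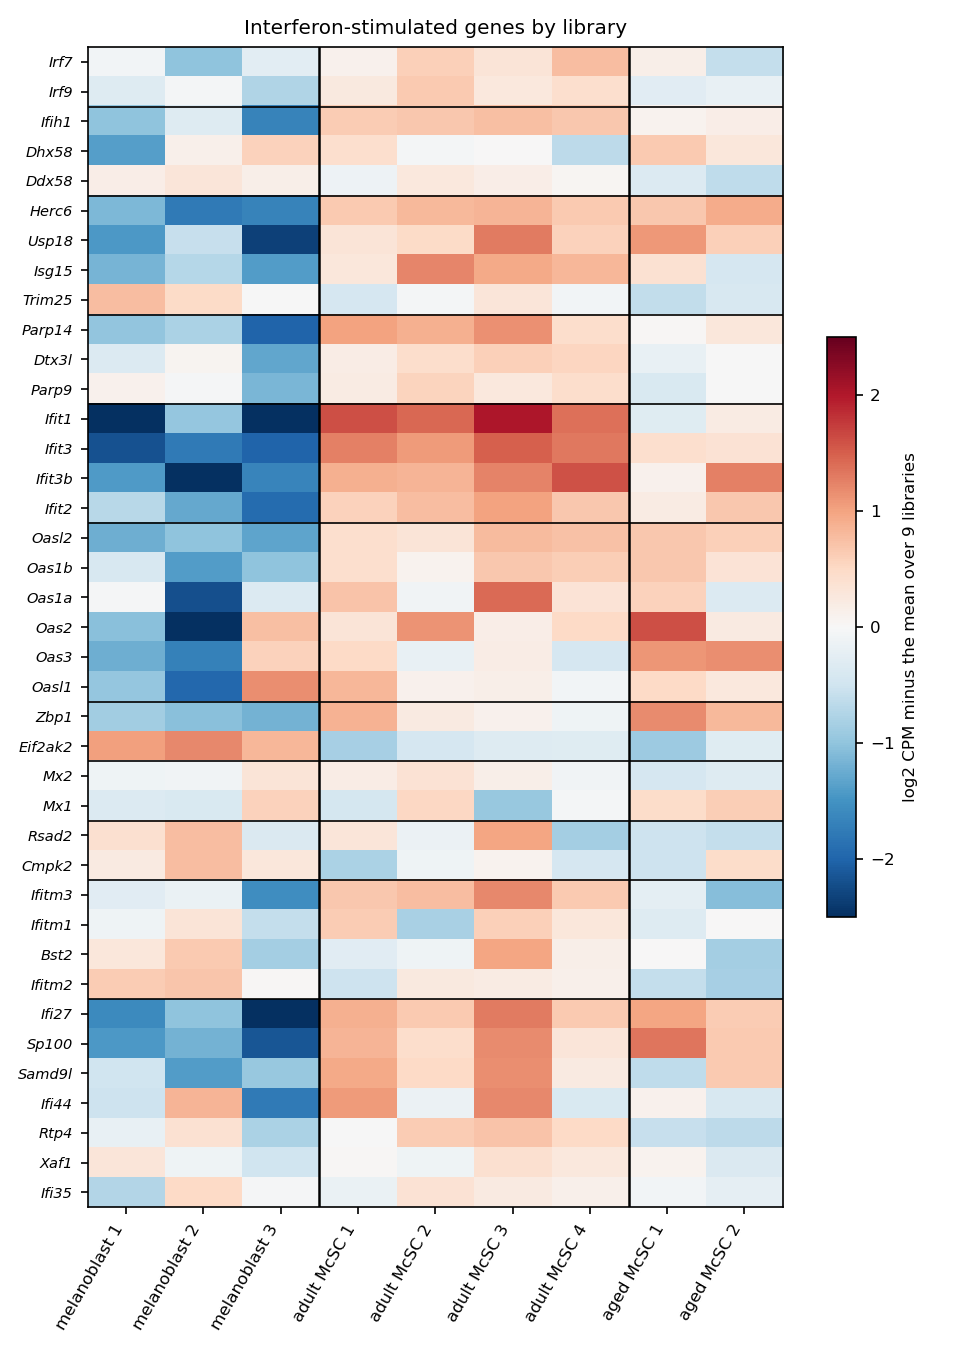
Level of each of the 39 genes in each of the 9 libraries, as log2 CPM minus the gene's mean over all 9 (red above, blue below), with genes grouped by role. The 4 IFIT genes, Herc6, Usp18, Parp14, Ifi27 and Sp100 are blue in the 3 melanoblast libraries and red in the 4 adult ones, and Eif2ak2 shows the opposite.

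The summed level of all 39 members was 692, 764, 869 and 714 CPM in the adult libraries and 555, 594 and 426 CPM in the melanoblast libraries. Adult replicate 3 was the highest and melanoblast replicate 3 the lowest. Adult replicate 3 held the highest adult value for 22 of the 39 members, against 18.4% of all genes tested. The same library had the highest adult sum of the 7 keratinocyte markers (2186 CPM) and of the 6 endothelial markers (205 CPM). The mast cell sum was also highest there (7.72 CPM). Adult replicate 1 had the lowest adult sum of the members. It had the highest adult sums of the macrophage and dendritic cell (63.1 CPM) and T and NK cell markers (10.9 CPM). Its sums of Schwann cell (635 CPM) and fibroblast markers (925 CPM) were also the highest among adult libraries.

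The sorted cells of adult skin also carried more RNA of several other cell types, while 7 of the 8 melanocyte lineage markers fell (median log2 fold change -1.49). The keratinocyte markers summed to 959 to 2186 CPM in adult McSC and 70.8 to 236 CPM in melanoblasts, and 7 of 7 rose. The 8 macrophage and dendritic cell markers summed to 40.0 to 63.1 CPM in adult McSC and 25.4 to 41.4 CPM in melanoblasts (3 of 8 rose, none fell). For the 6 endothelial markers the sums were 54.8 to 205 CPM in adult McSC and 37.5 to 76.1 CPM in melanoblasts (3 of 6 rose), and for the 6 Schwann cell markers 427 to 635 CPM in adult McSC and 124 to 203 CPM in melanoblasts (3 of 6 rose). The 6 T and NK cell markers summed to 4.06 to 10.9 CPM in adult McSC and 2.03 to 2.86 CPM in melanoblasts, with none past the threshold. Fibroblast markers (1 rose and 3 fell of 6) and mast cell markers (2 fell of 5 tested) went mostly the other way. Interferon-stimulated genes can be expressed by all of these cell types, and the part of such cells in the members' levels was not tested.

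**Figure D3:**
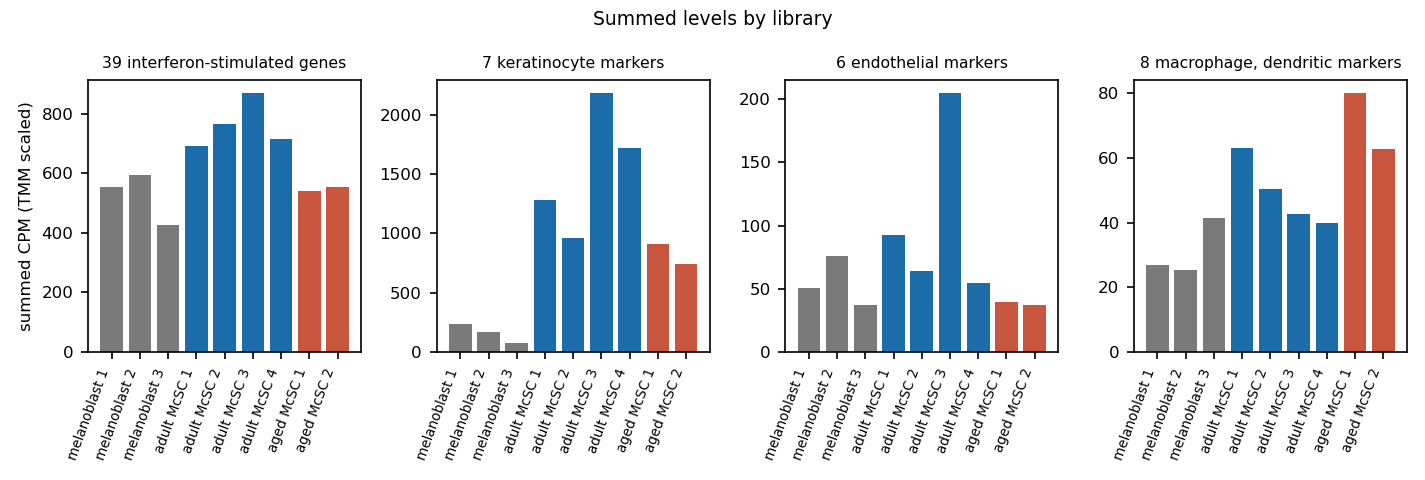
Summed CPM (TMM scaled) per library of the 39 interferon-stimulated genes and of 3 lists of markers of other cell types; each bar is 1 library, in the order melanoblasts (grey), adult McSC (blue) and aged McSC (red), and each panel has its own y axis from 0. The members' sum is 426 to 594 in melanoblasts, 692 to 869 in adult McSC and 539 and 553 in aged McSC.

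The IFIT proteins bind foreign RNA at its 5′ end and block its translation, and all 4 IFIT genes rose. Ifit1 was at 25.0, 22.0, 33.1 and 21.2 CPM in adult McSC and at 1.12, 4.17 and 1.41 CPM in melanoblasts. Every adult pool was several times above every melanoblast pool. The fold was 11.3 (log2 fold change 3.49, SE 0.376, adjusted p 1.63e-07). Ifit3, a partner of IFIT1, was at 18.2, 16.0, 21.5 and 19.0 CPM in adult McSC and at 1.68, 2.24 and 1.91 CPM in melanoblasts. The replicates of each group lay close together, with a fold of 9.57 (log2 3.26, SE 0.290, adjusted p 6.21e-09). Its near copy Ifit3b was at 5.53, 5.39, 7.10 and 8.99 CPM in adult McSC and at 1.12, 0.417 and 0.954 CPM in melanoblasts (log2 3.02, adjusted p 1.66e-05). Of the 126-base windows along the transcripts, 23.2% of those of Ifit3 and 20.1% of those of Ifit3b occur in the other gene, so that reads may have been split between them in a way that is not known. Ifit2 rose by a log2 fold change of 1.99 (adjusted p 9.84e-06). The 4 genes lie side by side on chromosome 19 (34550694 to 34650009, mm10), and it was the only one of the 7 chromosomal clusters of members (neighbours within 200 kb) in which every gene rose.

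ISG15 is a ubiquitin-like protein that is attached to other proteins after interferon. Of the 4 genes of this step 3 rose, among them Herc6, the ligase that attaches ISG15 in mice. Herc6 was at 19.4, 21.8, 22.5 and 19.4 CPM in adult McSC and at 5.66, 3.65 and 3.91 CPM in melanoblasts. The groups lay well apart (log2 2.24, SE 0.261, adjusted p 4.59e-07). Usp18, which removes ISG15 and also damps signalling at the receptor, was at 3.82, 4.23, 7.47 and 4.50 CPM in adult McSC and at 1.12, 2.03 and 0.602 CPM in melanoblasts (log2 1.99, SE 0.452, adjusted p 0.00141). Isg15 itself was low in CPM in all libraries, averaging 4.07 ± 1.03 CPM in adult McSC and 1.07 ± 0.259 CPM in melanoblasts (SD, n = 4 and 3), and rose (log2 1.92, adjusted p 0.00267). It is a short gene, and per kb of exon its 5.38 CPM in adult McSC lay above Herc6 (2.23) and Usp18 (1.79) and below Trim25 (9.82). Trim25, an E3 ligase that also activates the RNA sensor RIG-I, was at 43.5, 55.8, 71.1 and 55.5 CPM in adult McSC and at 98.9, 80.9 and 57.3 CPM in melanoblasts; the ranges overlapped and its log2 fold change of -0.48 did not pass the test (adjusted p 0.103).

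The PARP14, PARP9 and DTX3L proteins act on ADP-ribosylation and ubiquitin in the interferon response. Parp14 was at 74.3, 67.9, 80.9 and 50.3 CPM in adult McSC and at 18.7, 21.2 and 9.23 CPM in melanoblasts. All adult values were above all melanoblast values (log2 2.06, SE 0.272, adjusted p 2.82e-06). Dtx3l was at 20.8, 24.8, 27.4 and 26.4 CPM in adult McSC and at 14.4, 19.1 and 7.38 CPM in melanoblasts (log2 0.87, SE 0.272, adjusted p 0.0162), a call that was lost without melanoblast replicate 3 (log2 0.57, adjusted p 0.0593). Parp9, its partner, was at 19.3, 24.7, 20.2 and 22.7 CPM in adult McSC and at 17.9, 16.3 and 7.53 CPM in melanoblasts (log2 0.65, adjusted p 0.0675). The 2 genes share 458 exonic bases on opposite strands, 8.00% of Dtx3l and 9.40% of Parp9, and the treatment of strand in counting is not given in the sources used here.

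Among the RNA sensors, relatives with similar domains gave different calls. Ifih1, which encodes MDA5, a sensor of long RNA duplexes, was at 33.7, 34.9, 36.9 and 34.8 CPM in adult McSC and at 10.8, 17.4 and 6.88 CPM in melanoblasts. The adult pools were nearly equal and all above the melanoblast pools (log2 1.59, SE 0.268, adjusted p 6.55e-05). Ddx58, which encodes RIG-I, a sensor of RNA with a 5′ triphosphate, was at 23.2, 30.2, 28.4 and 26.1 CPM in adult McSC and at 28.4, 31.3 and 28.1 CPM in melanoblasts. Those ranges overlapped (log2 -0.12, SE 0.217, adjusted p 0.694). Dhx58, a relative without signalling domains, was at 3.23, 2.35, 2.43 and 1.54 CPM in adult McSC and at 0.934, 2.66 and 3.61 CPM in melanoblasts, with overlap. It shares 4.31% of its exonic bases with Dhx58os on the opposite strand.

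The transcription factors of the pathway gave 1 call of 2. Irf9, the DNA-binding subunit of ISGF3, was at 59.0, 78.9, 60.0 and 66.4 CPM in adult McSC and at 39.9, 48.5 and 29.7 CPM in melanoblasts. Every adult library was higher (log2 0.75, SE 0.224, adjusted p 0.0124). Its exons share 123 bases (2.28%) with Rnf31 on the same strand. Irf7, which drives interferon alpha genes, was at 5.88, 8.25, 6.81 and 9.32 CPM in adult McSC and at 5.17, 2.71 and 4.57 CPM in melanoblasts. Its groups did not overlap, but its adjusted p of 0.0535 missed the threshold (log2 0.87, SE 0.344); it passed in 13 of 19 alternative settings.

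The OAS family includes enzymes that make a second messenger for RNase L, and 2 of the 6 members of the family rose. Oasl2 was at 27.8, 25.8, 35.8 and 34.6 CPM in adult McSC and at 8.96, 10.4 and 8.33 CPM in melanoblasts (log2 1.75, SE 0.237, adjusted p 4.21e-06). Oas1b was at 7.60, 6.03, 9.04 and 8.70 CPM in adult McSC and at 4.29, 2.14 and 2.81 CPM in melanoblasts (log2 1.35, SE 0.335, adjusted p 0.00308). In both genes the groups were separate. Oas1a, Oas2, Oas3 and Oasl1 had log2 fold changes between 0.28 and 1.30 that did not pass, and Oas1a was at only 1.56, 0.898, 2.56 and 1.21 CPM in adult McSC and at 0.934, 0.208 and 0.753 CPM in melanoblasts, with overlap. Its group means of 1.56 and 0.632 CPM are at or below the 95th percentile of 1915 olfactory and vomeronasal receptor genes, receptors of sensory neurons (1.77 CPM in adult McSC and 0.786 CPM in melanoblasts), and 36.1% of the windows of Oas1a also occur in Oas1g. This percentile was itself higher in adult McSC than in melanoblasts, and higher again in aged McSC (2.05 CPM). Members of few CPM that rose, such as Isg15 and Zbp1, moved in the same direction as this background. Its part in their values was not tested. Oas1b lies on chromosome 5 between Oas3 and Oas1a (cluster from 120730333 to 120907521), where it was the one gene of 4 called.

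The single fall among the members was that of Eif2ak2, which encodes PKR, a kinase that halts translation when it binds duplex RNA. It was at 32.3, 42.9, 45.8 and 46.5 CPM in adult McSC and at 117, 131 and 102 CPM in melanoblasts. Every adult pool was well below every melanoblast pool, and the test gave -1.48 on the log2 scale (SE 0.221, adjusted p 1.49e-05). The call stood in all 19 alternative settings, with log2 fold changes from -1.57 to -0.64. Zbp1, a sensor of Z-form nucleic acids that can trigger cell death, was at 5.88, 3.72, 3.47 and 2.96 CPM in adult McSC and at 1.74, 1.56 and 1.41 CPM in melanoblasts and rose (log2 1.35, SE 0.403, adjusted p 0.0120).

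The IFITM proteins sit in membranes and hinder the fusion of virions. Ifitm3 had the highest level per length of all members, with a mean of 89.9 CPM per kb of exon over the 9 libraries, followed by Ifitm2 with 14.3 and Eif2ak2 with 12.9 CPM per kb, an order that differed between groups below Ifitm3. The next level per kb was that of Eif2ak2 in melanoblasts (22.8 CPM per kb), and that of Ifi27 in adult McSC (14.7) and in aged McSC (14.0). Ifitm3 was at 83.0, 89.2, 119.6 and 81.6 CPM in adult McSC and at 42.7, 46.4 and 17.8 CPM in melanoblasts. The adult pools were all higher (log2 1.39, SE 0.289, adjusted p 6.53e-04). Ifitm2 was at 6.20, 10.5, 10.2 and 9.70 CPM in adult McSC and at 13.8, 14.3 and 9.08 CPM in melanoblasts, with overlap (log2 -0.44, adjusted p 0.225). Of its windows 27.0% also occur in Gm45717, an overlapping model listed at 0 in every library. Ifitm1, on the same stretch of chromosome 7, and Bst2, which tethers virions to the cell, had log2 fold changes of 0.35 and 0.12 that did not pass; Ifitm1 also lay below the receptor genes' 95th percentile in adult McSC.

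Several members that are widely used as readouts of an interferon response did not pass the test in adult McSC. Mx1, a dynamin-like GTPase, was at 11.7, 22.9, 8.25 and 15.3 CPM in adult McSC and at 12.6, 12.2 and 23.6 CPM in melanoblasts (log2 -0.15, SE 0.301, adjusted p 0.718). Mx2 was at 24.3, 27.5, 23.7 and 20.2 CPM in adult McSC and at 19.9, 20.2 and 26.8 CPM in melanoblasts (log2 0.10, SE 0.226, adjusted p 0.744). Both sets of ranges overlapped. Rsad2, which encodes viperin, an enzyme that makes a chain-terminating nucleotide, was at 10.8, 7.95, 17.4 and 4.91 CPM in adult McSC and at 11.6, 15.0 and 6.83 CPM in melanoblasts (log2 -0.12, SE 0.344, adjusted p 0.811). Its neighbour on chromosome 12, Cmpk2, which supplies the nucleotide, was at 5.88, 9.49, 10.9 and 7.66 CPM in adult McSC and at 12.0, 17.4 and 12.4 CPM in melanoblasts. Every adult library lay below every melanoblast library for Cmpk2, but the log2 fold change of -0.72 did not pass (SE 0.289, adjusted p 0.0570).

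Of the other 7 members, 3 rose. Ifi27, which encodes a small hydrophobic protein, was at 21.3, 18.3, 28.4 and 18.2 CPM in adult McSC and at 3.86, 5.79 and 2.01 CPM in melanoblasts (log2 2.47, SE 0.316, adjusted p 1.78e-06). Sp100, a component of nuclear bodies, was at 10.3, 7.83, 13.0 and 7.08 CPM in adult McSC and at 2.12, 2.55 and 1.30 CPM in melanoblasts (log2 2.26, SE 0.352, adjusted p 2.53e-05). In both, all adult values were above all melanoblast values. Samd9l, an inhibitor of translation, also rose (log2 1.65, adjusted p 0.00109), whereas Rtp4, Ifi44, Xaf1 and Ifi35 had log2 fold changes between 0.15 and 0.71 and did not pass.

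**Figure D4:**
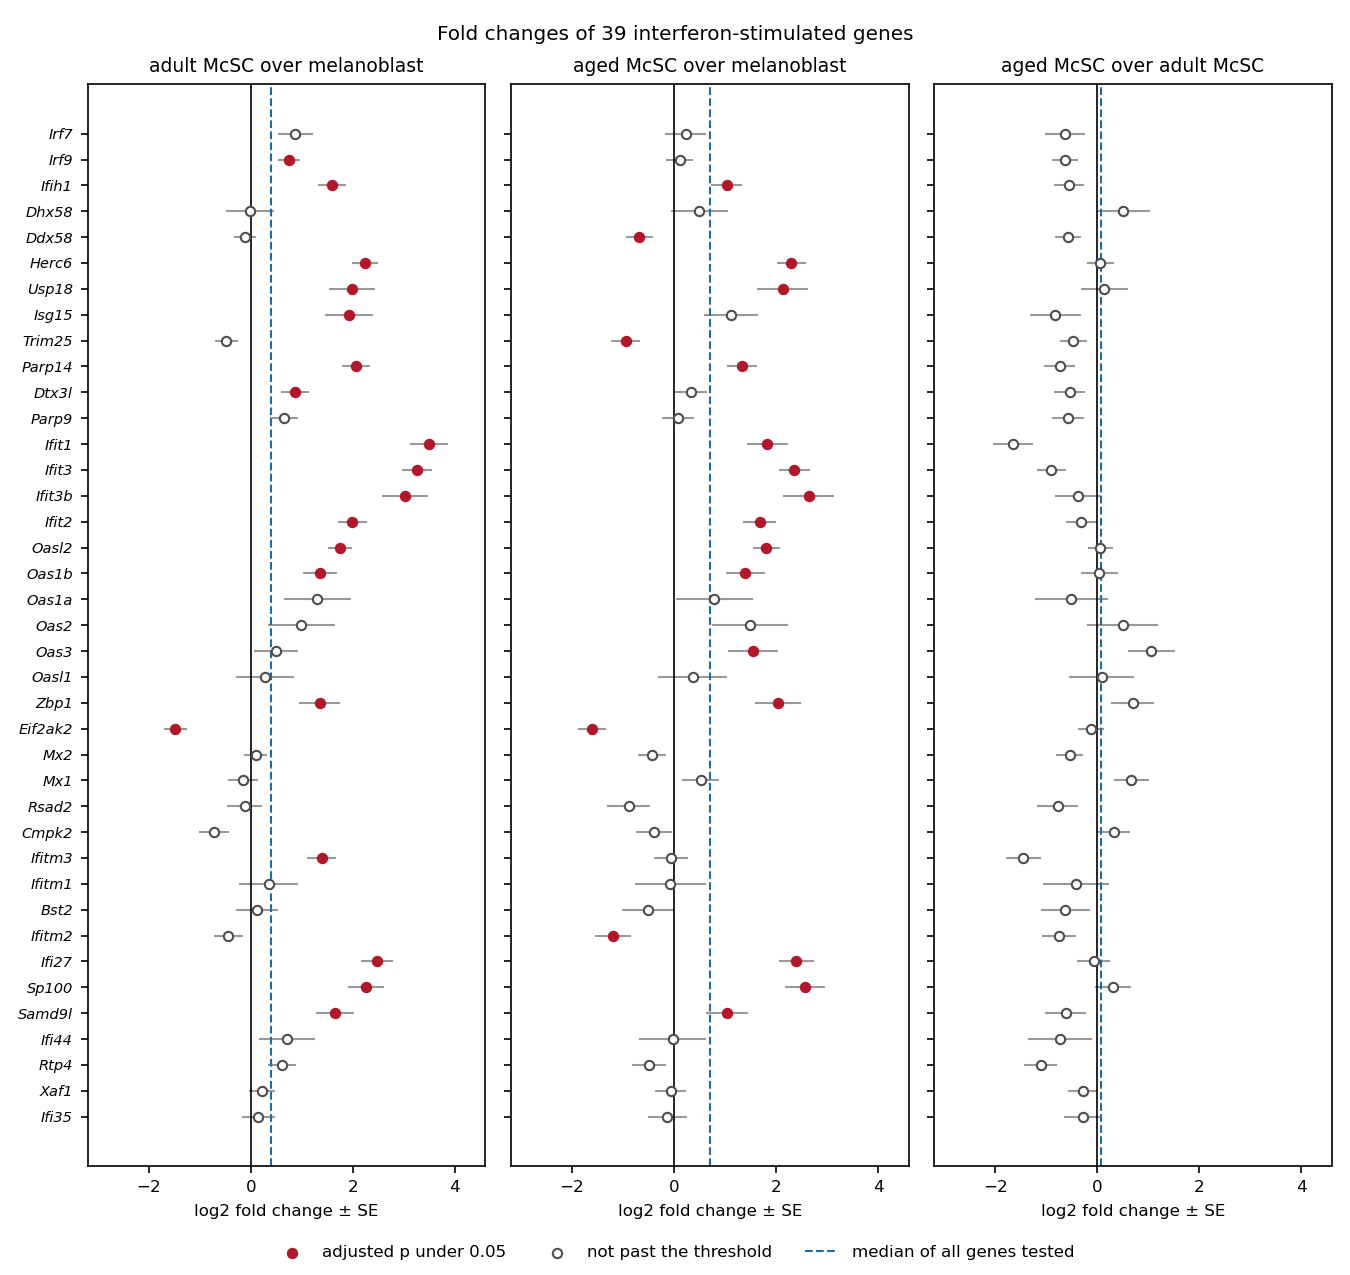
Log2 fold change of each of the 39 members, with its SE as a bar, in the 3 comparisons. Filled points passed an adjusted p of 0.05, the solid line marks 0 and the dashed line the median of all genes tested (0.39, 0.70 and 0.08 from left to right); in the right panel no point is filled and 27 of 39 lie below 0.

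Aged McSC differed from melanoblasts in a mixed way. Of the 39 members, 15 rose and 4 fell, against 20.4% and 20.3% (40.7% in all) of the genes tested, and the median was 0.49 over the members and 0.70 over all genes. In 15 members every aged library lay above every melanoblast library (40.4% of all genes) and in 6 every one lay below (25.7%). This comparison uses the same 3 melanoblast libraries as the one above, so the values are given side by side and no overlap is drawn from them. Under factors from abundant genes or library totals alone, 27 members rose and none fell. The median of all genes was also higher with abundant-gene factors, as given above, and no share over all genes stands beside these counts. Leaving out any 1 of the 9 libraries gave between 14 and 23 calls, and the number that fell was 1 without either aged replicate, 2 without melanoblast replicate 1 and 6 without melanoblast replicate 3.

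Markers of other cell types moved in this comparison too. The keratinocyte markers summed to 914 and 745 CPM in aged McSC and 70.8 to 236 CPM in melanoblasts (7 of 7 rose), and the macrophage and dendritic cell markers to 80.1 and 62.7 CPM in aged McSC and 25.4 to 41.4 CPM in melanoblasts (6 of 8 rose). The T and NK cell markers summed to 12.7 and 7.93 CPM in aged McSC and 2.03 to 2.86 CPM in melanoblasts (3 of 6 rose). The 3 called were Cd3e, Cd3g and Trac, with means of 4.24, 2.47 and 1.54 CPM in aged McSC. These are near or below the receptor genes' 95th percentile there (2.05 CPM), which was itself higher than in melanoblasts. Trac had only 6, 3 and 7 counts in the melanoblast libraries. Fibroblast markers were at 217 and 109 CPM in aged McSC and 541 to 2046 CPM in melanoblasts (5 of 6 fell), and 6 of 8 melanocyte lineage markers and 2 of 5 tested mast cell markers fell. No endothelial marker was called, and of the 6 Schwann cell markers 1 rose and 1 fell. Their part in the members' values was not tested.

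The 4 IFIT genes rose here too. Ifit1 was at 6.63 and 9.43 CPM in aged McSC (log2 1.83 over melanoblasts, SE 0.402, adjusted p 0.00106). Ifit3 was at 10.2 and 9.84 CPM in aged McSC (log2 2.36, SE 0.312, adjusted p 4.48e-06). Both aged pools were above all 3 melanoblast pools in either gene. Herc6 (19.7 and 23.7 CPM), Oasl2 (33.2 and 31.4 CPM), Ifi27 (23.0 and 18.0 CPM) and Usp18 (6.43 and 4.57 CPM) had log2 fold changes in aged McSC over melanoblasts of 2.30, 1.81, 2.40 and 2.13. For adult McSC these were 2.24, 1.75, 2.47 and 1.99. Sp100 had 14.5 and 9.09 CPM (log2 2.57) and Zbp1 7.28 and 5.61 CPM in aged McSC (log2 2.04, adjusted p 0.00124). Oas3, the largest protein of its family, was at 9.38 and 9.72 CPM in aged McSC and at 1.87, 1.36 and 6.47 CPM in melanoblasts. Its log2 fold change was 1.55 (SE 0.497, adjusted p 0.0163 by edgeR's quasi-likelihood test). The call of Oas3 stood in 15 of 19 alternative settings. That of Samd9l (log2 1.04) stood in 9. Samd9l was at 3.88 and 9.43 CPM in aged McSC and at 4.29, 2.29 and 3.11 CPM in melanoblasts, with overlap.

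Eif2ak2, Ifitm2, Trim25 and Ddx58 fell in aged McSC against melanoblasts. Eif2ak2 was at 30.4 and 46.1 CPM in aged McSC (log2 -1.61, SE 0.281, adjusted p 1.03e-04). Its direction was the same under every scaling, though the call was lost with factors from abundant genes and with library totals alone. Ifitm2 was at 5.86 and 4.98 CPM (log2 -1.19, adjusted p 0.00998), Trim25 at 37.8 and 43.9 CPM (log2 -0.95, adjusted p 0.0110) and Ddx58 at 20.1 and 16.3 CPM in aged McSC (log2 -0.68, adjusted p 0.0427). All aged values of these genes lay below all melanoblast values, but the 3 directions turned under library totals alone, to log2 fold changes of 0.01, 0.24 and 0.47, and those of Trim25 and Ddx58 also under factors from abundant genes, to 0.22 and 0.46. The call of Ddx58 stood in 5 of 19 alternative settings, that of Trim25 in 13 and that of Ifitm2 in 14; without aged replicate 1 or without aged replicate 2 all 3 were lost.

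Irf9 and Ifitm3, both higher in adult McSC, stood near the melanoblast level in aged McSC with TMM scaling. Irf9 was at 41.2 and 43.6 CPM in aged McSC (log2 0.11 over melanoblasts, SE 0.263, adjusted p 0.753), and Ifitm3 at 43.7 and 24.8 CPM (log2 -0.06, SE 0.334, adjusted p 0.900). Both were called higher in aged McSC with factors from abundant genes (log2 1.28 for Irf9 and 1.16 for Ifitm3) and with library totals alone, and Irf9 also with the filter of at least 5 CPM in at least 2 libraries (0.81). Isg15 had 2.91 and 1.68 CPM in aged McSC (log2 1.11, adjusted p 0.0948).

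Set directly against adult McSC, aged McSC gave no call among the 39 members by edgeR's quasi-likelihood test, where 0.303% of all genes were called, 0.0532% higher and 0.250% lower. At an unadjusted p under 0.05 there were 9 members, 8 lower and 1 higher, beside 10.2% of all genes. DESeq2 called 3 members lower (Ifit1, Ifit3 and Ifitm3), and limma voom called 4 lower (those and Rtp4) and 1 higher (Oas3). Leaving out 1 library gave 2 calls without melanoblast replicate 2, 3 without melanoblast replicate 3 and 1 without aged replicate 1, all lower. The share of 0.303% belongs to edgeR's test on all 9 libraries, so no share over all genes stands beside the counts under these alternatives. The median was -0.47 over the members and 0.08 over all genes, and 27 of 39 values were negative, beside 14624 of 31961 over all genes. In 12 members every aged library lay below every adult library, as for 12.1% of all genes, and in 1, Oas3, every one lay above, as for 15.5%.

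The largest log2 difference among the members was that of Ifit1, with 6.63 and 9.43 CPM in aged McSC and 25.0, 22.0, 33.1 and 21.2 CPM in adult McSC. Neither aged pool reached the lowest adult pool (log2 -1.66, SE 0.392, adjusted p 0.0759). Ifitm3 was at 43.7 and 24.8 CPM in aged McSC and at 83.0, 89.2, 119.6 and 81.6 CPM in adult McSC, also without overlap (log2 -1.45, SE 0.337, adjusted p 0.0711). Over the 19 alternative settings the lower level was called in 7 for Ifit1 and in 8 for Ifitm3. Ifit3 was at 10.2 and 9.84 CPM in aged McSC and at 18.2, 16.0, 21.5 and 19.0 CPM in adult McSC (log2 -0.90, SE 0.291, adjusted p 0.288). Rtp4, a chaperone of receptors, was at 8.94 and 8.51 CPM in aged McSC and at 13.3, 20.9, 22.1 and 19.0 CPM in adult McSC (log2 -1.11, SE 0.325, adjusted p 0.232); 13.9% of its exonic bases are shared with Gm45338 on the same strand. In both genes the aged pools lay under all adult pools. On the other side Oas3 was at 9.38 and 9.72 CPM in aged McSC and at 6.16, 3.85, 4.99 and 3.25 CPM in adult McSC (log2 1.06, SE 0.458, adjusted p 0.449). Herc6, Oasl2, Oas1b and Ifi27 had log2 differences between -0.07 and 0.06 from adult McSC, with SE of 0.251 to 0.357.

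Levels were also summed by family, without a test of the sums. The 4 IFIT genes summed to 7.63 to 12.1 CPM in melanoblasts, 65.4 to 87.3 CPM in adult McSC and 34.8 and 46.9 CPM in aged McSC. The 6 OAS genes summed to 14.6 to 24.6 CPM in melanoblasts, 41.4 to 55.8 CPM in adult McSC and 59.4 and 52.8 CPM in aged McSC. The IFIT sums of aged and adult McSC did not overlap, with Ifit1 and Ifit3 separate and Ifit2 and Ifit3b overlapping, and the OAS sums overlapped; no gene of either family was called between these groups. For markers of other cells, the keratinocyte sum was 914 and 745 CPM in aged and 959 to 2186 CPM in adult McSC, and the endothelial sum 39.6 and 36.8 CPM in aged and 54.8 to 205 CPM in adult McSC, with no marker of either list past the threshold. The macrophage and dendritic cell sum was 80.1 and 62.7 CPM in aged and 40.0 to 63.1 CPM in adult McSC (0 of 8 called). Schwann cell and fibroblast markers fell (3 of 6 each). The part of these cells in the members' values was not tested.

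**Figure D5:**
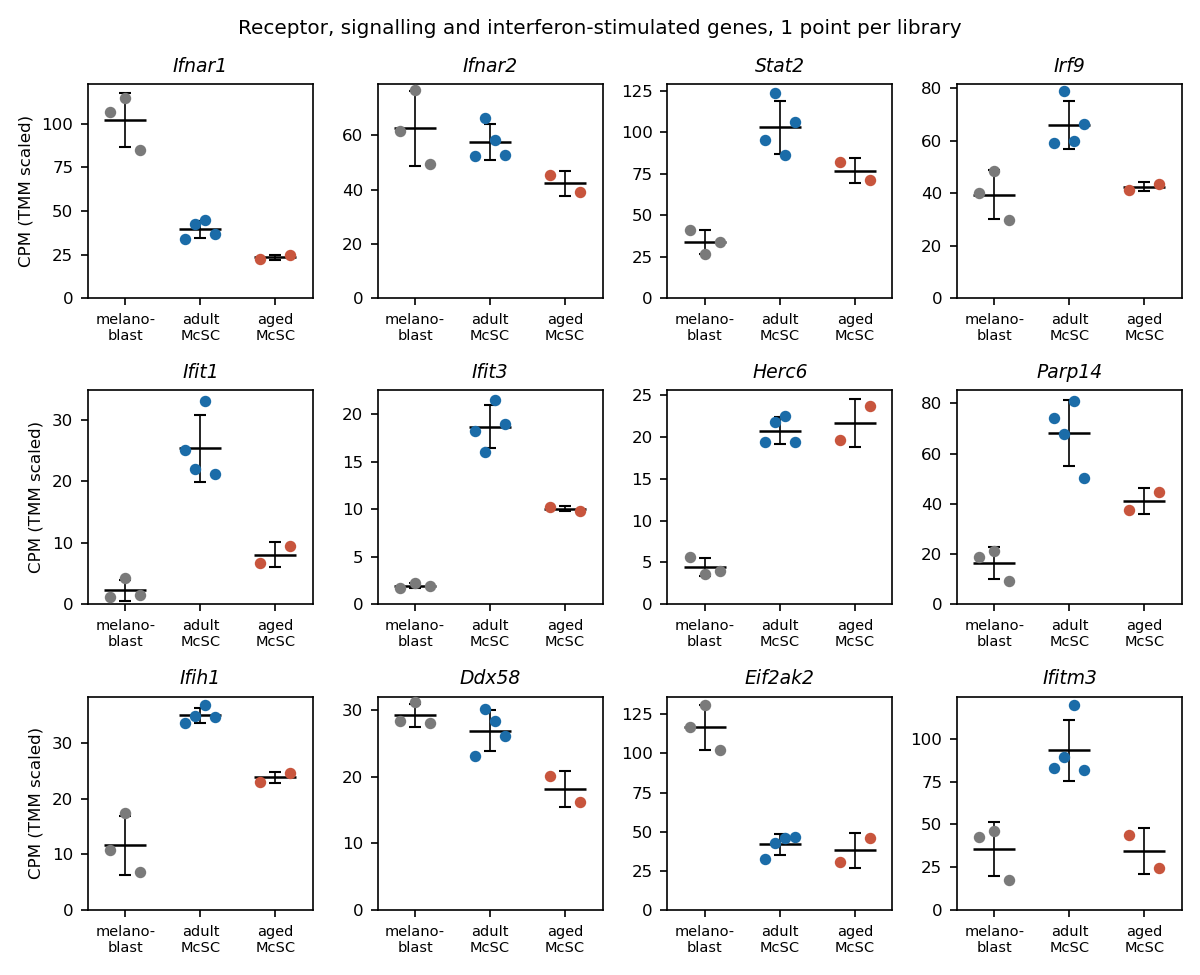
CPM (TMM scaled, y axes from 0) of the receptor chains Ifnar1 and Ifnar2, the ISGF3 subunits Stat2 and Irf9, and 8 further members; each point is 1 library, with the group mean and SD as bars. Ifnar1 and Eif2ak2 are highest in the 3 melanoblast libraries, Ifit1, Ifit3, Stat2, Irf9 and Ifitm3 are highest in the 4 adult libraries, and Herc6 is at 19.4 or more in both McSC groups.

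Upstream of the members, the receptor and its signal transducers gave calls in both directions. The counts of these lists in adult McSC stand beside 15.1% of all genes tested that rose and 18.3% that fell. Ifnar1 was at 34.0, 42.4, 44.6 and 36.5 CPM in adult McSC and at 107, 115 and 84.9 CPM in melanoblasts. Every adult library was lower, and the fall was called under every scaling (log2 -1.38, SE 0.210, adjusted p 1.89e-05; -0.53 with library totals alone). Ifnar2 was at 52.4, 66.5, 58.4 and 52.9 CPM in adult McSC and at 61.5, 76.8 and 49.4 CPM in melanoblasts, with overlap (log2 -0.12, adjusted p 0.683). Of the 6 interferon receptor chains, 1 rose (Ifnlr1, for interferon lambda, log2 1.76) and 3 fell (Ifnar1, Ifngr2 and Ifngr1); the fall of Ifngr1 (log2 -0.64) turned to 0.17 and 0.22 under abundant-gene factors and library totals.

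Of 10 signal transducers, 3 rose and 1 fell in adult McSC. Stat2 was at 95.5, 124, 86.2 and 106 CPM in adult McSC and at 41.0, 26.8 and 34.1 CPM in melanoblasts. The groups were far apart (log2 1.60, SE 0.229, adjusted p 8.93e-06). Irf1, a factor that interferons induce, rose by a log2 fold change of 1.41 (adjusted p 2.68e-05) and Irf8 by 2.30 (adjusted p 0.00415; 3.37 ± 1.16 CPM in adult McSC and 0.668 ± 0.728 CPM in melanoblasts, SD). Jak2 fell (log2 -0.62, adjusted p 0.0242), which turned to 0.17 and 0.21 under abundant-gene factors and library totals.

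Of 10 tested negative regulators, 4 rose: Socs1 and Socs3, which block JAK kinases, Samhd1, which degrades deoxynucleotides, and Rnf125, a ligase that removes RIG-I. Socs3 was at 112, 122, 145 and 109 CPM in adult McSC and at 13.3, 13.0 and 6.52 CPM in melanoblasts (log2 3.48, SE 0.276, adjusted p 8.45e-10). Every adult library was far above the melanoblast libraries. Socs1 was low, at 1.39 ± 0.517 CPM in adult McSC and 0.123 ± 0.0528 CPM in melanoblasts (SD; log2 3.41, adjusted p 0.00147), and both means lay below the receptor genes' 95th percentile. At such levels a gene passes the filter on low counts only through the group in which it is counted, so the call of Socs1 carries little weight. With factors from abundant genes or library totals, 8 negative regulators and 7 signal transducers were called, without a share over all genes beside them. Trex1, an exonuclease of the same list, was listed at 0 throughout and not tested.

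Of 14 nucleic acid sensors and adaptors, 2 rose (Tlr3 and Myd88) and 5 fell in adult McSC. Traf6, a ubiquitin ligase of Toll-like receptor signalling, had the greatest fall (log2 -1.46, adjusted p 1.19e-05), in the same direction under every scaling. Tbk1, Mavs, Traf3 and Zc3hav1 fell by log2 values between 0.63 and 0.80, and each turned above 0 under library totals (0.03 to 0.21). Without melanoblast replicate 1 the list had 2 calls in all, and without adult replicate 1 it had 4.

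Transcripts of interferons themselves were scarce. Of 21 ligand genes 7 passed the filter and 4 were called higher in adult McSC. A rare gene passes this filter only through the group in which it is counted, so these calls say nothing of the list as a whole. Ifnk, an interferon of keratinocytes, was at 4.71, 1.50, 1.98 and 0.583 CPM in adult McSC and at 0.187, 0.208 and 0.351 CPM in melanoblasts (log2 3.10, adjusted p 0.00163). Ifnl3, Ifna2 and Ifna13 averaged 1.03, 0.845 and 0.507 CPM in adult McSC, below the 1.77 CPM of the receptor genes' 95th percentile there, and Ifna13 had no count in any melanoblast library (floor of 3 counts, 0.151 to 0.187 CPM).

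In aged McSC against melanoblasts the same lists gave 4 of 7 tested ligands higher, 1 of 6 receptors higher and 3 lower. Of 10 transducers 3 were higher and 2 lower, of 14 sensors or adaptors 2 were higher and 7 lower, and of 10 tested negative regulators 4 were higher. Over all genes tested 20.4% were higher and 20.3% lower, and the limits given for rare ligand genes and for Socs1 hold here too. The falls of Ifngr1, Jak1, Jak2, Adar, Tbk1, Traf3 and Zc3hav1 turned above 0 under library totals (log2 0.02 to 0.20). Without aged replicate 2 the sensors and adaptors had 4 calls, and without aged replicate 1 the negative regulators had 2. Ifnar1 was at 22.4 and 24.5 CPM in aged McSC, below every melanoblast library (log2 -2.13, SE 0.275, adjusted p 3.31e-06). Stat2 was at 82.2 and 71.5 CPM in aged McSC (log2 1.18, SE 0.258, adjusted p 9.85e-04). No gene of the 5 lists was called between aged and adult McSC, where the values were -0.75 for Ifnar1 (SE 0.249, adjusted p 0.297) and -0.42 for Stat2 (SE 0.251, adjusted p 0.571) on the log2 scale.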

How the data were processed

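Bulk RNA-seq was measured in 9 libraries. According to the labels' protocols, cDNA was amplified from 20 ng of RNA per pool and sequenced as 126-base read pairs, so counts come from amplified material. The submitters' processing notes name mm10 as the build and list STAR 2.5.2 among the authors' tools, beside Trimmomatic 0.36, SAMtools 1.9, FastQC 0.11.8 and DESeq2 1.22.2, without their settings. Which program counted the reads, on which annotation, and how it treated strand and multi-mapped reads is not given in the sources used here. Each deposited file holds raw counts for Ensembl genes without normalization. Groups and replicate numbers came from the sample titles.

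Symbols and coordinates came from GENCODE vM21, of the same build, for 49412 of 49671 genes. These counts were analysed with edgeR 4.0.16 (R 4.3.3), using filterByExpr and TMM scaling. All 9 libraries entered a group means model without covariates. P-values of the robust quasi-likelihood F test were adjusted by Benjamini and Hochberg's method over the 31961 genes tested, with a threshold of 0.05. SE of log2 fold changes came from the F statistic. The script was tested on simulated data. The limit set by a count of 0 was taken as 3 counts, or 0.117 to 0.187 CPM, and covers counting error only. Chi-square values per degree of freedom were 15.2 to 63.3 between replicates of a group, far above sampling noise.

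Alternatives were RLE factors, factors from abundant genes (mean log2 CPM above 5), no filter, at least 5 CPM in at least 2 libraries, limma 3.58.1 (voom with quality weights), DESeq2 1.42.0, the compared groups alone, the replicate number as a block, no mitochondrial genes, and each library left out. Library totals without factors were added after seeing that TMM factors differed between groups. Values in every library are given for the 2 members of each role with the smallest p in adult McSC against melanoblasts, members called lower, the 3 highest per length and those whose counts a near-identical or overlapping neighbour could change; members given with values beyond these, such as Oas3 and Isg15, were chosen after their values were seen. The members, the pathway lists and the marker lists were chosen with earlier results of these data known, so their direction is not independent evidence, and lists are described by counts and medians. One gene of the signal transducer list is counted there but not reported here.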

Additional observations from a re-analysis of the deposited data

How the results depend on the processing

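For adult McSC against melanoblasts, 18 of the 19 members called by edgeR's quasi-likelihood test stayed called in every one of the 19 alternatives that tested them, Dtx3l being the exception; Isg15 was not tested under the stricter filter. Leaving out 1 library gave 19 to 24 calls, 18 to 21 higher and 1 to 3 lower; limma voom gave 2 lower. The members' median minus that of all genes was 0.48, and 0.24 to 1.28 over the alternatives. For aged McSC against melanoblasts, 12 of 19 calls stood in every alternative that tested the gene. Leaving out 1 library gave 14 to 23 calls, 13 to 17 higher and 1 to 6 lower. Factors from abundant genes and library totals each gave 27 higher and 0 lower, and the stricter filter, which keeps 33 members, gave 1 lower. Directions turned for Ddx58 (0.46, 0.47 and, with the stricter filter, 0.01), Ifitm2 (0.01 with totals) and Trim25 (0.22 and 0.24); the first 2 values of Ddx58 and both of Trim25 are with abundant-gene factors and with totals. For aged against adult McSC, no call became 2 without a filter, 3 with DESeq2, 5 with voom (4 lower and 1 higher), 2 with only the groups compared and 2 with the replicate block, and 0 to 3 with 1 library left out (2 without melanoblast replicate 2, 3 without melanoblast replicate 3, 1 without aged replicate 1). All of these but 1 were lower. The cause of these changes was not tested. The share of all genes called is given only for edgeR's test with TMM scaling on all 9 libraries. Counts of members under the alternatives therefore have no such share beside them.

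The titles number the replicates without saying that equal numbers pair samples. Deviations from the group means of same-numbered libraries correlated between -0.08 and 0.202. These values cannot settle whether samples were paired, because the groups are small and the deviations of the 2 aged libraries mirror each other. With the number as a block, 18 members rose and 1 fell in adult McSC, 16 rose and 3 fell in aged McSC against melanoblasts, and 0 rose and 2 fell in aged against adult McSC. The aged group has 2 libraries of the lowest depth, so a missing call there does not show an equal level.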
